A study of Mus musculus with 298 samples.

Results

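Htr3a and Htr3b encode the A and B subunits of the serotonin type 3 receptor, and both were followed through the single-cell transcriptomes of mouse thoracic sympathetic ganglia. They are 2 of the 16892 genes of the expression table. They were chosen by their own measured counts, namely by how these differ between the cell identities given in the labels and by how often both appear in the same cell, so those patterns are described here without a test. Sex and age played no part in the choice and were tested. All cells came from mice carrying Wnt1-Cre and the R26R-Tomato reporter, in which Cre is active in the neural crest and its descendants are marked red. That reporter served to tell ganglia from neighbouring tissue, and all groups compared here share this genotype. Ganglia were dissociated, and 298 single cells were captured on 24 microfluidic chips (Fluidigm C1). The 10 collections, each of 1 sex and 1 age, comprised 3 from males (P29, P30 and P38, 91 cells) and 7 from females (P11, P16, P20, P30, P31, P33 and P34, 207 cells), where P is the postnatal day.

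The labels give 213 cells an identity. How it was assigned is not given in the sources used here. Where it was drawn from these same transcriptomes, differences between identities are in part set by the assignment. The named cells are 8 Ach1 and 8 Ach2 cells (cholinergic), 4 Glutamatergic cells and 193 noradrenergic cells. Noradrenergic1, Noradrenergic2, Noradrenergic4 and Noradrenergic5 hold 10, 39, 18 and 23 of them, and Noradrenergic3, the most numerous, holds 28 male and 75 female cells. The remaining 85 cells are unclassified. A cell held between 7225 and 81589 counts, with a median of 33099, and 0 pairs of cells had identical columns. Levels are given as counts per 10000 counts of the cell or of the summed cells. Since no label names an animal, the replicate is the collection: counts of 1 identity were summed in each collection, and means ± SD run over these sums. In the small identities a sum is often a single cell. P-values therefore measure the spread between collections, and whether a collection holds more than 1 animal is not given. The collection labelled P16 female went against its label: its 5 cells held 0 counts of Xist, and all 5 held Ddx3y, a gene of the Y chromosome. It entered no sex test, and mean levels over collections that include it are also given without it.

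The cells carried the markers of their names. Chat, Slc18a3, Slc5a7 and Vip summed to a median of 79.97 counts per 10000 over Ach1 cells and 56.7 over Ach2 cells. Th, Dbh, Slc6a2, Slc18a2 and Npy summed to medians of 92.2 to 242 in the noradrenergic identities. The sensory neuron list reached a median of 180 counts per 10000 in Glutamatergic cells.

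The type 3 receptor is a cation channel of the Cys-loop family, built of subunits around a central pore, and it opens when serotonin binds outside the cell. It differs in this from the other serotonin receptors, which act through G proteins. The A subunit can form a working channel alone, whereas the B subunit needs the A subunit to reach the cell surface and changes the conductance and kinetics of the channel it joins. In autonomic and sensory ganglia the receptor is known for fast excitation of neurons by serotonin.

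The genes are neighbours on mouse chromosome 9 and lie on the minus strand of GRCm38 (GENCODE M21; the deposited counts used mm10, the same assembly). Htr3a (ENSMUSG00000032269.8) spans chr9:48899213-48911099 and Htr3b (ENSMUSG00000008590.4) spans chr9:48935008-48964990. The 23908 bases between them hold no annotated gene. Their coding parts, 1470 and 1314 bases long, were identical at 61.5% of 1297 aligned bases. The longest stretch that the annotated transcripts of the pair share is 14 bases, and it is shown because it bounds how much of a read could fit both genes (coding part, from base 382 of Htr3a and base 349 of Htr3b):
shared stretch: aatgagtttgtgga
A longer read from either gene therefore has no exact match in the other. An antisense gene on the plus strand, Gm32335 (chr9:48896451-48905982), overlaps Htr3a and is not among the rows of the table. Whether counting used strand is not given in the sources used here, so reads from it and from Htr3a cannot be told apart.

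The promoter of Htr3b is shown because the pair was present in the same cells and this is the promoter that the RefSeq table (GRCm38.p6) holds. It covers the 250 bases before the start of the gene, 5′ to 3′ on the minus strand, chr9:48964991-48965240. Capitals mark the single match to the E-box motif CANNTG, searched on both strands, which begins 65 bases before the start:
Htr3b promoter: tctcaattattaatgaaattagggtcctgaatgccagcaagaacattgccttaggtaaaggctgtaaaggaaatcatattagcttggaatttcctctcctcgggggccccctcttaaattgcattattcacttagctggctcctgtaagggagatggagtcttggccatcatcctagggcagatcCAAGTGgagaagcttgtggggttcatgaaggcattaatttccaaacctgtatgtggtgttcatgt
Of 32851 promoter windows of this length, 66.2% hold such a match. The homeodomain core TAAT was found 8 times on either strand, and 54.9% of windows hold at least 1. The motif AGATAA was not found in this window and is in 9.99% of windows. A match describes letters and not a bound site.

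Htr3a was the more abundant row of the pair. It had 2718 counts in all cells, at least 1 count in 179 of 298 cells, and up to 146 counts in a cell. Htr3b had 818 counts, at least 1 count in 145 cells, and at most 28 in a cell. Among the 213 named cells Htr3a was counted in 133 and ranked 604 of all genes by counts, and Htr3b was counted in 116 and ranked 2069. These are counts and not levels per length. The transcripts are of similar length, 2082 bases for the longer of 2 Htr3a transcripts and 2411 for Htr3b.

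The highest mean levels of Htr3a were in cholinergic cells. Ach1 averaged 17.8 ± 6.19 counts per 10000 (SD, n = 7 collections) and Ach2 12.1 ± 6.65 (n = 4), and all 16 cholinergic cells had both genes. Without the collection labelled P16 female the means were 18.6 and 15.4. Ach1 cells held 14, 14, 51, 55, 62, 65, 137 and 146 Htr3a counts. The 8 Ach2 cells held 6, 19, 25, 32, 41, 60, 64 and 82. The 2 Ach1 cells with the most counts were the highest by count in the table, and the lowest cells of both identities were within the range of Noradrenergic2. The Ach1 cell with 137 Htr3a counts, from P31 female, also had the most Vip of its identity, at 1422 counts. Vip is the vasoactive intestinal peptide of cholinergic sympathetic neurons. By level this cell lay at 21.3 counts per 10000 of Htr3a. The cells with 146 and 62 counts lay higher, at 25.97 and 25.8, with 165 and 60 counts of Vip. The other P31 female Ach1 cell had 14 Htr3a counts with 586 counts of Npy, the peptide typical of noradrenergic neurons. The P30 male Ach1 cell, also with 14 Htr3a counts, had 1 count of Npy. In Ach2, the cell with 6 Htr3a counts, from P16, had the most Npy of its identity, 65 counts, against 10 or fewer in the other 7.

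Noradrenergic1 came next, with 10.2 ± 5.63 counts per 10000 of Htr3a (n = 5 collections). All 10 of its cells had both genes, with at least 5 and a median of 21.5 Htr3a counts. Levels in single cells ran from 1.33 to 31.6 counts per 10000, so that the highest cell of the whole table by level was noradrenergic. That cell is 1 of the 2 of the P29 male collection, the highest at 19.9. Without this collection the mean was 7.74, and the single collection of at least 3 cells, P31 female, was at 5.75. These cells carried Th, tyrosine hydroxylase, at 18 to 132 counts, and 0 to 8 counts of Vip. A high level of Htr3a was therefore found in cells of both transmitter types.

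In Noradrenergic2 the mean level was 4.22 ± 2.26 counts per 10000 (n = 7) and 36 of 39 cells had Htr3a. The 3 cells without it came from P29 male, P33 female and P38 male, and held 28141 to 50091 counts in total, against a median of 43245 for the identity, of which 28141 is the lowest total. Without the collection labelled P16 female the mean was 4.53. Noradrenergic5 averaged 2.05 ± 1.49 (n = 6), with Htr3a in 21 of 23 cells. Over collections of at least 3 cells its mean was 3.85, which placed it above Noradrenergic2. In Noradrenergic4 the mean was 0.94 ± 0.53 (n = 5), with 14 of 18 cells positive. Noradrenergic3, the most numerous identity, had the lowest mean, 0.35 ± 0.32 (n = 7), with Htr3a in 33 of its cells and not in the other 70.

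The 4 Glutamatergic cells had 55, 3, 1 and 0 Htr3a counts, a mean over 3 collections of 3.91 ± 5.95 counts per 10000. The P33 female cell with 55 counts also held 130 counts of Th and 555 of Npy, besides 313 of Calca, the sensory peptide gene. The other 3 Glutamatergic cells had 0 to 3 counts of Th. The Glutamatergic mean rests on that cell: without its collection it was 0.49.

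From the highest to the lowest mean, Htr3a thus ran Ach1, Ach2, Noradrenergic1, Noradrenergic2, Glutamatergic, Noradrenergic5, Noradrenergic4 and Noradrenergic3. Most neighbours in this order differed by less than the larger of their SDs. Noradrenergic1 and Noradrenergic2 differed by more, as did Noradrenergic4 and Noradrenergic3, but in both cases the ranges over collections overlapped. Between identities wider apart, some ranges overlapped and others did not. Ach2, at 2.15 to 15.998, overlapped Noradrenergic2, at 1.33 to 7.69, and Noradrenergic5, at 0.51 to 3.96. That overlap came only from the collection labelled P16 female, 1 cell at 2.15. The other Ach2 collections, at 14.6, 15.6 and 15.998, lay above both ranges. Noradrenergic2 overlapped Noradrenergic5 and Noradrenergic4. The Glutamatergic range, 0 to 10.8, overlapped those of all other identities. Other ranges were apart. The lowest Ach1 collection was at 10.1 counts per 10000 and the highest Noradrenergic2 collection at 7.69. The lowest Noradrenergic1 collection was at 5.75 and the highest Noradrenergic5 collection at 3.96. The lowest Noradrenergic2 collection was at 1.33 and the highest Noradrenergic3 collection at 0.89.

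**Figure D1:**
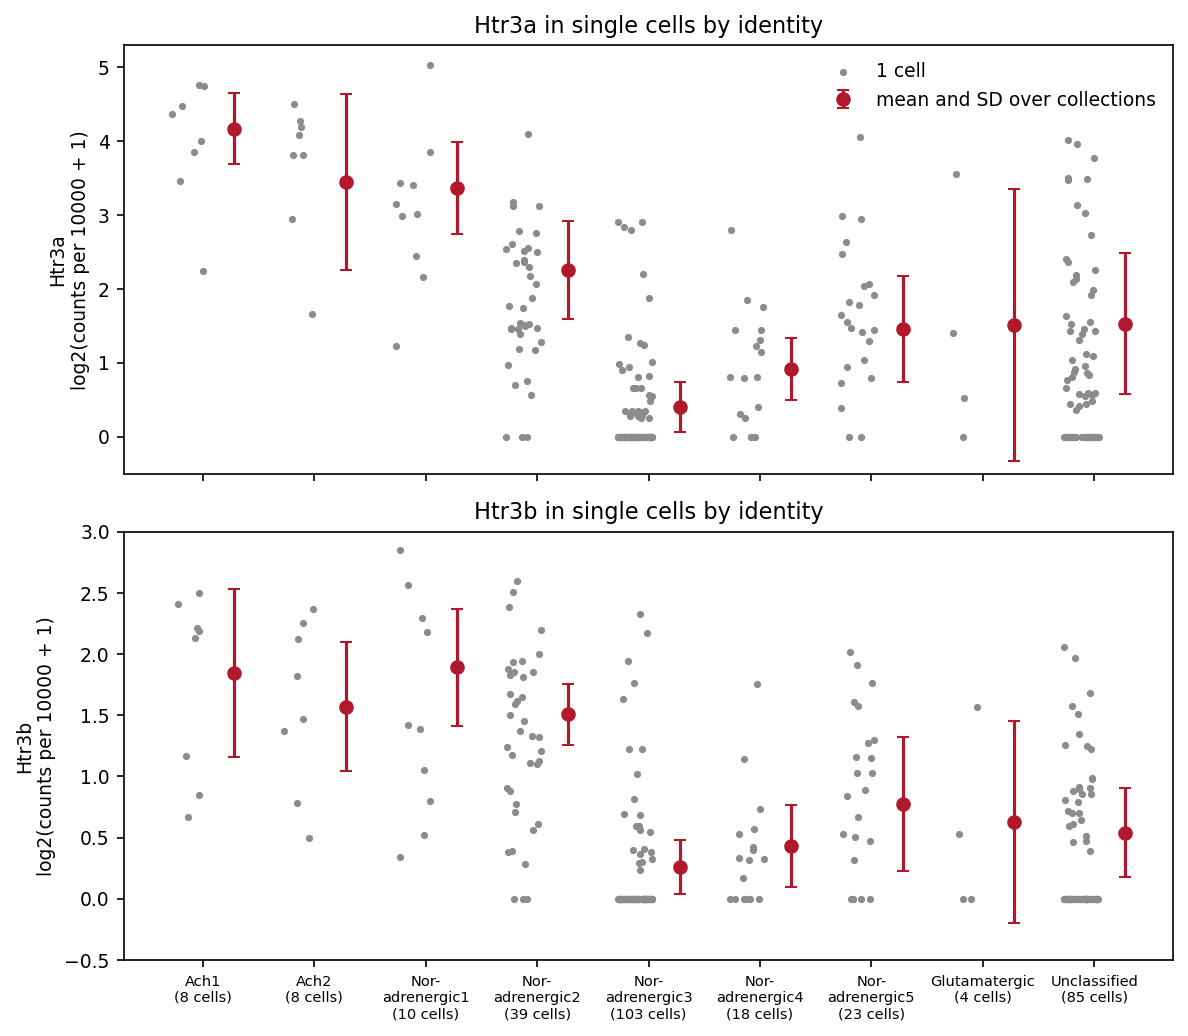
Level of Htr3a (top) and Htr3b (bottom) in every cell, as log2 of counts per 10000 plus 1, by identity. Grey points are cells, and red points with bars are the mean and SD of the same log2 values over collections. All 16 cholinergic and all 10 Noradrenergic1 cells lie above 0 for both genes, whereas 70 Noradrenergic3 cells lie at 0 for Htr3a and 33 above it.

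Htr3b followed a flatter order. It averaged 2.91 ± 1.53 counts per 10000 in Ach1, 2.87 ± 1.22 in Noradrenergic1, 2.10 ± 0.93 in Ach2 and 1.88 ± 0.47 in Noradrenergic2. The mean was 0.81 ± 0.63 in Noradrenergic5, 0.73 ± 1.07 in Glutamatergic, 0.38 ± 0.32 in Noradrenergic4 and 0.21 ± 0.19 in Noradrenergic3, over the same collections. The Glutamatergic mean again rests on the P33 female cell, which held 10 of the 11 Htr3b counts: without its collection it was 0.12. Over collections of at least 3 cells the Noradrenergic5 mean was 1.32. Without the collection labelled P16 female it was 2.62 in Ach1, 2.56 in Ach2 and 1.94 in Noradrenergic2, which put Noradrenergic1 first. Only Noradrenergic2 and Noradrenergic5 differed, as neighbours in this order, by more than the larger of their SDs, and their ranges over collections overlapped (1.07 to 2.51 and 0 to 1.45). Which of Ach1 and Noradrenergic1 came first depended on scaling: with TMM effective library sizes Noradrenergic1 was the higher. Noradrenergic2 lay above every Noradrenergic3 and Noradrenergic4 collection, since its lowest was 1.07 and their highest were 0.489 and 0.783.

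The balance of the pair differed between identities. Htr3b made up 13.8% of the summed Htr3a and Htr3b counts in Ach1 (95% exact binomial interval 11.2 to 16.7), 14.8% in Ach2 (11.4 to 18.7) and 15.7% in Glutamatergic cells (8.11 to 26.4), where 1 cell held nearly all counts of the pair. It made up 20.3% in Noradrenergic1 (16.2 to 24.8) and 33.6% in Noradrenergic2 (30.7 to 36.7). In Noradrenergic3, Noradrenergic4 and Noradrenergic5 it was 33.1% (27.3 to 39.3), 23.5% (15.5 to 33.1) and 24.9% (20.4 to 29.8). The intervals cover counting error only. Over collections with at least 10 counts of the pair, the share was 15.1 ± 9.88% in Ach1 (n = 7), 14.3 ± 1.21% in Ach2 (n = 3), 23.5 ± 9.56% in Noradrenergic1 (n = 5) and 33.6 ± 7.91% in Noradrenergic2 (n = 7). It was 33.3 ± 11.8% in Noradrenergic3 (n = 5), 30.5 ± 18.7% in Noradrenergic4 (n = 4) and 31.3 ± 10.2% in Noradrenergic5 (n = 3). By this measure these 3 identities differed from Noradrenergic2 by less than their SDs. Ach2 collections, at 13.5 to 15.7%, lay below all Noradrenergic2 collections, at 22.2 to 44.4%, whereas Ach1 collections, at 3.77 to 30.0%, overlapped them. The fourth Ach2 collection, P16 female, had 8 counts of the pair and was left out by that minimum; its share, 25%, is inside the Noradrenergic2 range. In cholinergic cells the mean Htr3a level was thus above that of Noradrenergic2 by more than the larger SD, while the mean Htr3b levels differed by less. A share of counts is not a share of subunits in the channel.

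In single cells the pair largely went together. Of the 213 named cells, 30 had Htr3a alone, 13 had Htr3b alone, 67 had neither and all others had both. The cells with 1 gene alone were near the limit of counting. Their median was 1.5 counts for Htr3a alone and 1 count for Htr3b alone. No named cell without Htr3a had more than 2 Htr3b counts, and the highest Htr3a count without Htr3b was 9, in 1 Noradrenergic5 cell. All 58 named cells with at least 10 Htr3a counts had Htr3b, as did 84 of the 87 with at least 5.

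Both genes were counted in 35 of 39 Noradrenergic2 cells, 17 of 23 Noradrenergic5 cells, 9 of 18 Noradrenergic4 cells and 2 of 4 Glutamatergic cells. In Noradrenergic3, 14 cells had both genes, 19 had Htr3a alone, 9 had Htr3b alone and 61 had neither. Depth alone changes such shares. At a depth thinned to 15000 counts per cell, the expected share with both was 91.6% in Ach1, 91.8% in Ach2, 85.2% in Noradrenergic1 and 75.96% in Noradrenergic2. At that depth it was 56.1% in Noradrenergic5, 25.6% in Noradrenergic4 and 10.3% in Noradrenergic3. The order of the noradrenergic identities was thus kept at equal depth. Requiring 2 counts of each gene left 3 of 18 Noradrenergic4 cells and 13 Noradrenergic3 cells with both.

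**Figure D2:**
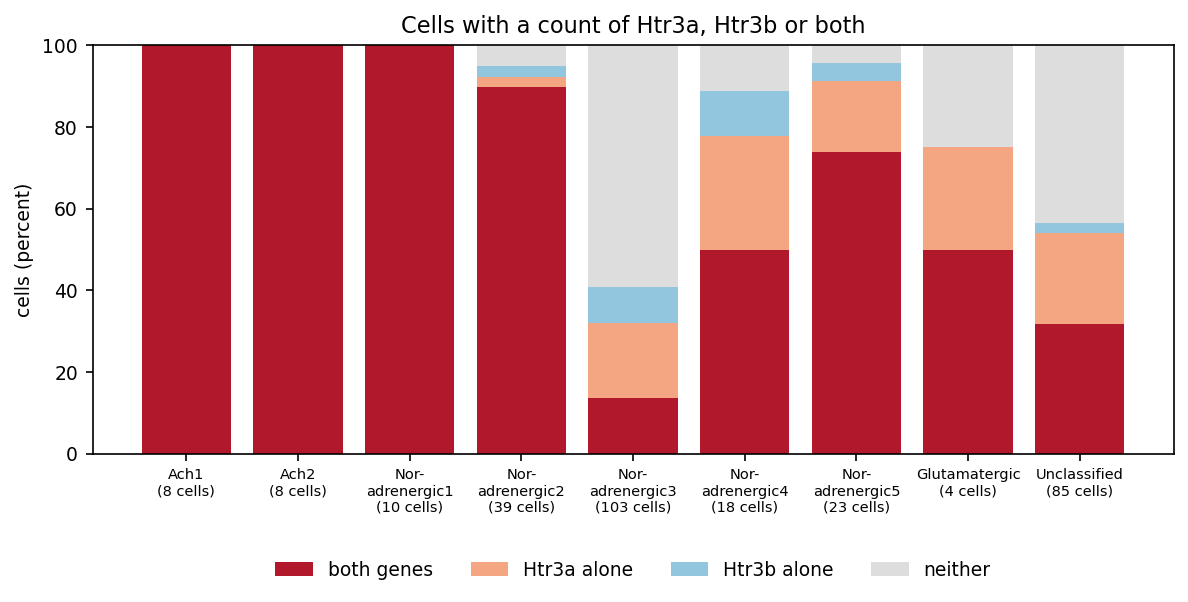
Percent of cells of each identity with a count of both genes, of Htr3a alone, of Htr3b alone or of neither. Both genes were counted in all Ach1, Ach2 and Noradrenergic1 cells, and neither in 61 Noradrenergic3 cells, against 14 with both.

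Across the 213 named cells, the log2 levels of Htr3a and Htr3b correlated at a Pearson r of 0.83 (Spearman 0.83). The cells share libraries, chips and depth, and the value is descriptive. Among 12384 genes with a count in at least 10 named cells, each of the pair was the other's closest gene. The next closest genes were at 0.62 for Htr3a and 0.52 for Htr3b, and the median over all genes was -0.01 for each. With each gene centred within identity the correlation was 0.69, and each was again the closest gene to the other, ahead of the next at 0.46 for Htr3a and 0.41 for Htr3b. After thinning to 15000 counts it was 0.75 over the 210 cells deep enough. Presence in the same cells was part of the choice of the pair, so these values are a description. The relation was not the same in every identity. Within Noradrenergic2 the Pearson r was 0.79 (Spearman 0.82, 39 cells) and within Noradrenergic3 0.81 (Spearman 0.50). By ranks the pair was thus less closely linked in Noradrenergic3, where 61 cells had neither gene, than in Noradrenergic2. Within Noradrenergic5 the Pearson r was 0.58 (Spearman 0.63, 23 cells) and within Noradrenergic4 0.41 (Spearman 0.33, 18 cells). Within Noradrenergic1 it was 0.67 (Spearman 0.64, 10 cells). In the 8 cells of each cholinergic identity it was 0.50 in Ach2 (Spearman 0.21) and 0.31 in Ach1 (Spearman -0.12).

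**Figure D3:**
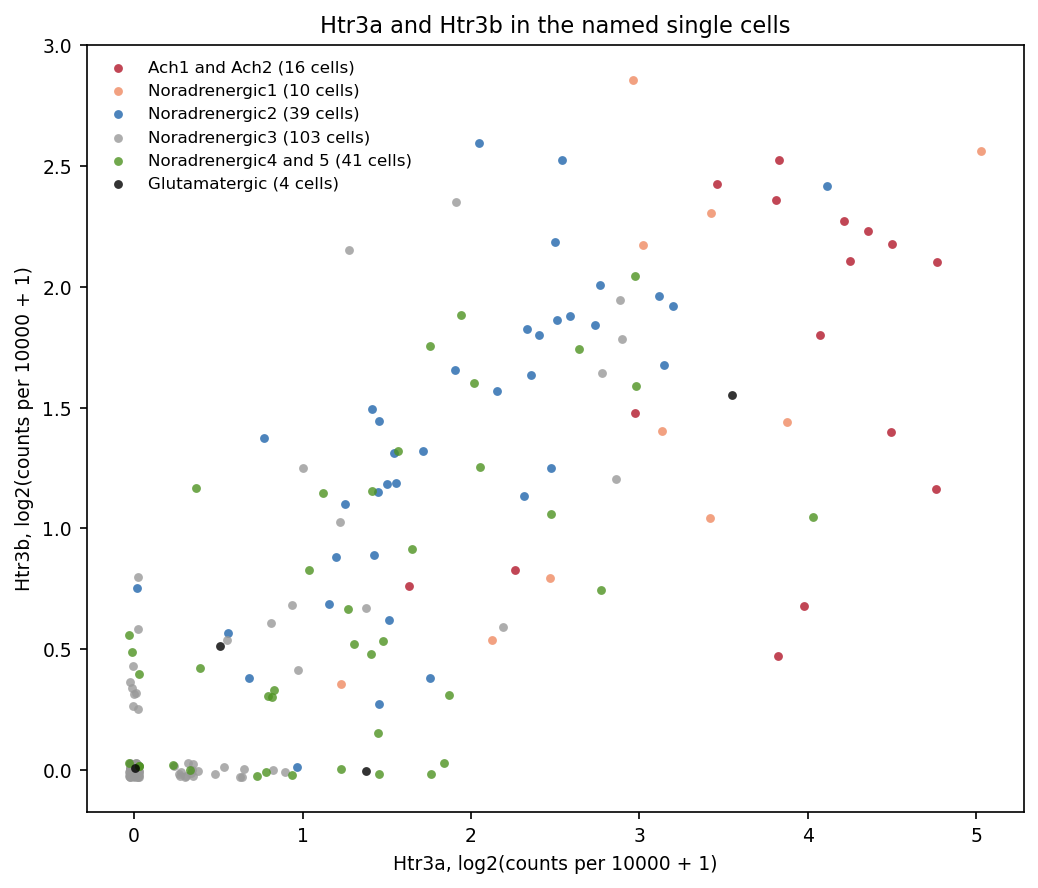
Htr3b against Htr3a in the 213 named cells, each as log2 of counts per 10000 plus 1, with a small horizontal and vertical offset added so that cells at 0 can be seen. The cell furthest to the right is a Noradrenergic1 cell, at 31.6 counts per 10000 of Htr3a, followed by an Ach1 cell. The highest cells for Htr3b are Noradrenergic1, Noradrenergic2, Ach1 and Ach2 cells. The highest Noradrenergic3 cell, at 4.03 counts per 10000 of Htr3b, lies next below them.

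The neighbouring genes on chromosome 9 did not share the pattern. The 9 other genes within 500000 bases that had a count in at least 10 named cells correlated with Htr3a at -0.18 to 0.10. Among them is Drd2, the dopamine receptor, at -0.09 with Htr3a and 0.05 with Htr3b, and Usp28, the next gene beyond Htr3b, at 0.03 and 0.06.

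Noradrenergic3 cells differed widely in these genes, and whether they form separate groups was not tested. Most of its cells had no Htr3a count, 19 had 1 or 2 counts and 9 had 3 to 9. The remaining 5 cells had 15, 17, 23, 25 and 27 counts, and together held 63.7% of the Htr3a counts of the identity. Their levels, 3.59 to 6.48 counts per 10000, lay within the range of Noradrenergic2 collections and of single Noradrenergic2 cells, 0 to 16.2. All 5 had Htr3b, at 2 to 11 counts, and all 5 had 65 to 135 counts of Th and 0 of Vip, so they were noradrenergic by these genes. They came from 5 chips and from the P38 male, P30 female and P31 female collections. Of the 7 Noradrenergic3 cells with at least 5 Htr3a counts all had Htr3b, although 61 cells of the identity had neither gene.

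Chips differed inside a collection. Of the P31 female Noradrenergic3 cells, those on the 4 chips with at least 3 such cells had Htr3a in 6 of 11, 8 of 11, 2 of 9 and 0 of 12 cells, at pooled levels of 0.32, 0.71, 0.64 and 0 counts per 10000. A count in 0 of 12 cells allows a share of up to 25%. The chip with 0 of 12 cells gave Htr3a in all 9 of its Noradrenergic2 cells, at 3.66 counts per 10000. In the P30 female collection the Noradrenergic3 cells of 1 chip had Htr3a in 4 of 7 cells and those of another in 0 of 4, which allows up to 75%. What these chips share or differ in is not in the labels, and the part of the chip in the level was not tested.

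The question of sex was asked within identities. In Noradrenergic3, Htr3a was at 0.19 counts per 10000 in P29 males and 0.89 in P38 males, against 0, 0.55, 0.39, 0.43 and 0 in P11, P30, P31, P33 and P34 females. Htr3b was at 0.07 and 0.46 in those males, against 0.13, 0.18, 0.15, 0.49 and 0 in the females. For both genes, 3 of the 5 female values lay between the 2 male values. A count of 0 allows up to 0.132 counts per 10000 at P11 and 0.257 at P34, taking 3 counts as the floor. The log2 difference, male over female, was 0.69 ± 0.89 for Htr3a (SE; edgeR quasi-likelihood test, 2 against 5 collections, adjusted p = 1.00) and 0.53 ± 0.69 for Htr3b (adjusted p = 1.00). Neither was called, and over all genes 3 of 11360 were, 0.0264%: Xist and Tsix lower and Ddx3y higher in males. The sign of the differences rested on the P38 males, without which they were -0.93 and -1.52, and with age in the model they were -0.28 and -0.03.

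In Noradrenergic2, Htr3a was at 6.43 and 3.13 counts per 10000 in P29 and P38 males, against 3.67 and 1.33 in P31 and P33 females. Htr3b was at 2.51 and 2.01 in the males, against 1.99 and 1.07 in the females. For Htr3a the male and female ranges overlapped, and for Htr3b both male values were above both female values, though P38 males and P31 females were nearly level. The log2 difference was 0.78 ± 0.68 for Htr3a (edgeR adjusted p = 0.933) and 0.43 ± 0.26 for Htr3b (edgeR adjusted p = 0.898). Neither was called, against 1 of 9403 genes (0.0106%), Ddx3y. Without the P31 females the Htr3a difference was 1.78 and was called (edgeR adjusted p = 0.0049), with a single female collection left that is assumed to vary like the males. The sex effect in Noradrenergic3 less that in Noradrenergic2 was -0.03 ± 1.77 for Htr3a and 0.03 ± 0.90 for Htr3b over the 4 collections that hold both identities (edgeR with collections as block, adjusted p = 1.00 for each). With SEs of 0.68 and 0.89 for Htr3a, a 2-fold difference was not detectable in either identity.

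With age, Htr3a was higher in older Noradrenergic3 collections. It had 0 counts in 6 cells at P11, 8 in 12 cells at P29, 28 in 13 cells at P30, 64 in 43 cells at P31, 14 in 10 cells at P33, 0 in 3 cells at P34 and 54 in 16 cells at P38. Apart from P34, with its 3 cells, the youngest collection was the lowest and the oldest the highest. Much of these sums came from few cells. Single cells held 23 of the 28 counts at P30, 25 and 17 of the 64 at P31, and 27 and 15 of the 54 at P38. The share of cells with a count was 0, 25, 30.8, 37.2, 30, 0 and 43.75% from P11 to P38. The slope was 0.18 ± 0.04 log2 units per day (SE; edgeR adjusted p = 0.020), and Htr3a was among 168 genes called of 11360 tested, 1.48%, of which 74 were higher with age, 0.651%. Htr3b had 3, 3, 9, 24, 16, 0 and 28 counts in the same order. Its slope, 0.11 ± 0.05 per day, was not called (edgeR adjusted p = 0.352), and the difference between the slopes was not tested.

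The Htr3a call was fragile. It was lost without P11 (slope 0.16, edgeR adjusted p = 0.854), P31 (0.18, 0.072), P33 (0.18, 0.067) or P38 (0.16, 0.223), and DESeq2 gave it no adjusted p. With sex in the model the slope was 0.20 ± 0.05 and was called (edgeR adjusted p = 0.021). P11 was a single chip, so its age and its chip cannot be told apart. Of 13 tested satellite glia and Schwann cell genes, 0 passed the age test in edgeR, 1 at an unadjusted p under 0.05, and 0 were called by DESeq2. Their median slope was 0.049 log2 units per day, against 0.005 over all genes tested. The part of glial RNA in the Htr3a slope was not tested. At P11 Htr3a was not absent from the ganglion: the 1 Noradrenergic4 cell had 1 count, the 2 Noradrenergic5 cells had 4 counts together, and the 1 unclassified cell had 16. In Noradrenergic4 the level at P38 was 1.61 counts per 10000 and in the other collections 0.24 (P11), 0.62 (P30), 1.21 (P31) and 1.04 (P33), each from 1 to 7 cells.

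**Figure D4:**
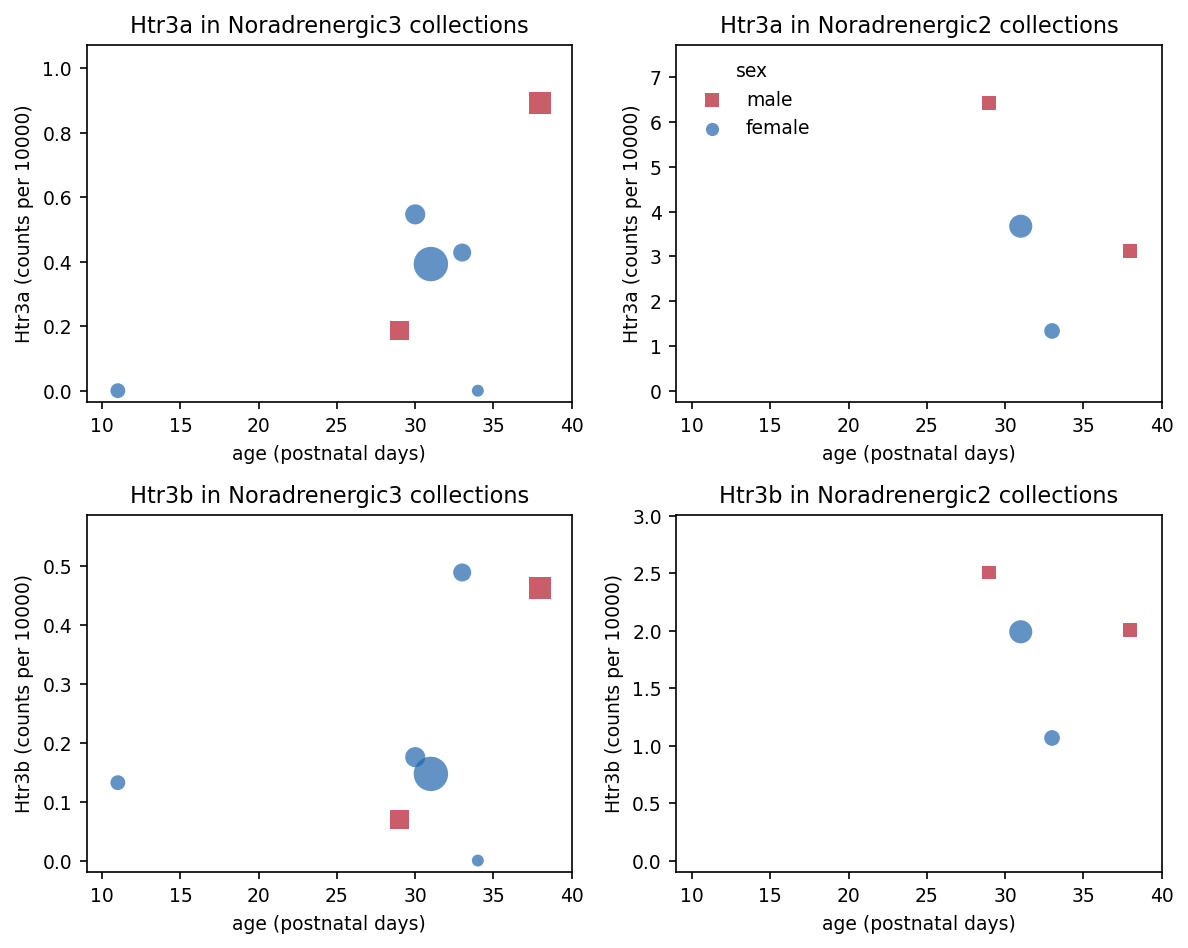
Level of Htr3a (top) and Htr3b (bottom), in counts per 10000 of the summed cells, in the collections with at least 3 Noradrenergic3 (left) or Noradrenergic2 (right) cells, against age in postnatal days. Red squares are males, blue circles are females, and larger symbols stand for more cells. In Noradrenergic3 the P38 male collection is the highest for Htr3a at 0.89, and P11 and P34 lie at 0.

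Genes with the most similar pattern were ranked by Pearson r over the 213 named cells. After Htr3b, those closest to Htr3a were Rgs9 (0.62), a regulator of G-protein signalling, Clu (0.61), which encodes the secreted chaperone clusterin, and Slc5a7 (0.58), the choline transporter. Then came Chn2 (0.56), a Rac-regulating chimaerin, Tmem176b (0.56), Ctsb (0.55), a lysosomal protease, and Pde1a (0.55), a calmodulin-dependent phosphodiesterase. Slc18a3 (0.55), the vesicular acetylcholine transporter, and Vip (0.54) completed the first 10. Several are cholinergic genes. The pooled level of Slc5a7 was 8.96 counts per 10000 in Ach1 cells, 2.67 in Ach2 cells and 0.241 in Noradrenergic1 cells. For Vip these levels were 96.8, 66.8 and 0.344.

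The likeness to the cholinergic genes was lower after centring within identity. The r of Htr3a was then 0.20 with Slc5a7, 0.20 with Slc18a3 and -0.05 with Vip. These 3 genes were counted in 41, 21 and 46 named cells and were near 0 in most identities. The centred values therefore say little about likeness within the cholinergic cells. After centring, the closest genes following Htr3b were Cntn5 (0.46), a contactin of the neural adhesion type, and Esr1 (0.42), the oestrogen receptor alpha. Brinp1 (0.36), a neural protein gene, and Spock3 (0.35), which encodes a proteoglycan, came next. Cntn5 was highest in Noradrenergic1, at 3.03 counts per 10000, and lower in Ach1, at 0.922. Esr1 was counted in 45 named cells and was highest in Noradrenergic2, at 0.278, against 0.044 in Noradrenergic3.

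For Htr3b the closest genes after Htr3a were Brinp1 (0.52), Rgs9 (0.52), Mrap2 (0.51), an accessory protein of melanocortin receptors, and Gng4 (0.50), a G-protein gamma subunit. None of the 4 cholinergic marker genes was among its first 10. Centred within identity they were Esr1 (0.41), Mrap2 (0.35), Hpca (0.34), the calcium sensor hippocalcin, and Cntn5 (0.34). Brinp1 was at 2.48 counts per 10000 in Noradrenergic1 and 1.13 in Noradrenergic2, against 0.593 in Ach1 and 0.211 in Noradrenergic3, an order unlike that of Htr3a in its low cholinergic level.

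**Figure D5:**
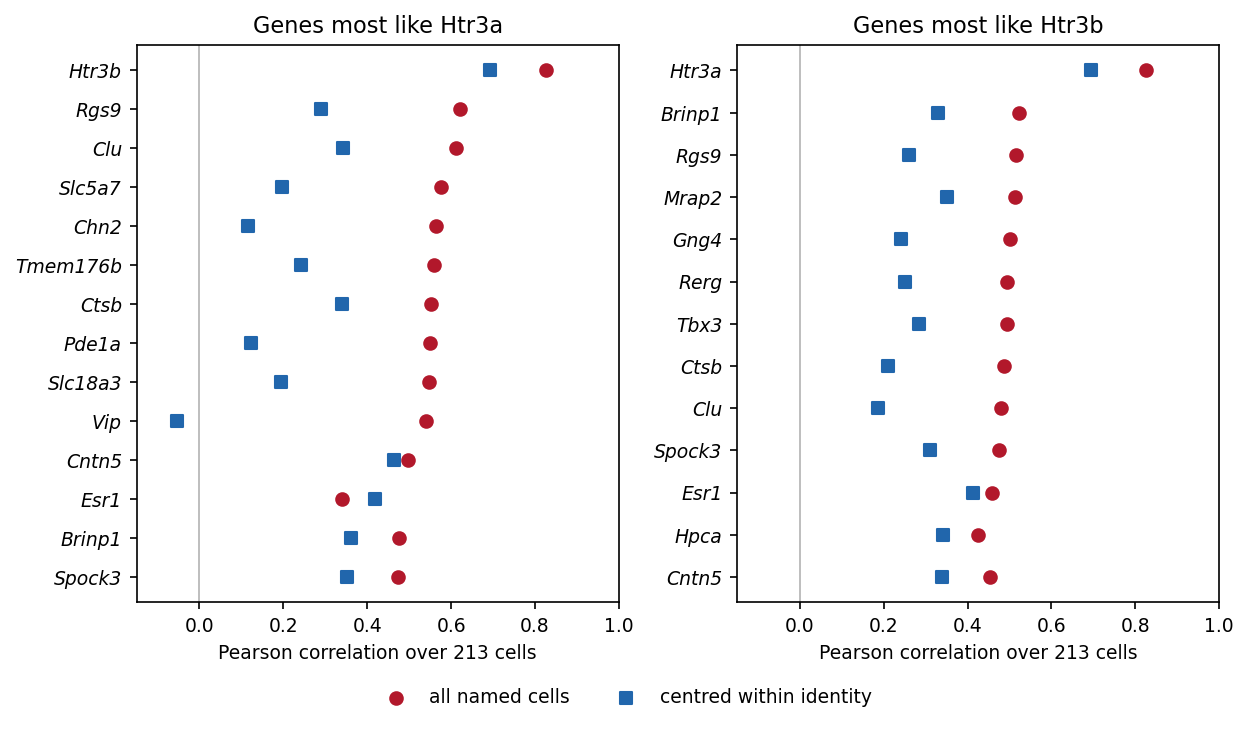
Pearson correlation of Htr3a (left) and Htr3b (right) with the genes most like them, over 213 named cells, on log2 of counts per 10000 plus 1. Red circles use all named cells and blue squares the values centred within identity; the pair itself stays at 0.69, while Vip is at -0.05 with Htr3a once centred.

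The other receptors for serotonin that are in the table were close to the limit of counting. Of 12 genes for G-protein-coupled serotonin receptors, 9 are rows of the table, and 1 of them, Htr5a, was counted in at least 10 named cells. It had 16 counts in 16 cells, 9 of them Noradrenergic3 cells, 4 Noradrenergic2, 2 Noradrenergic5 and 1 Glutamatergic. The other 8 had 1 to 8 counts in 1 to 7 named cells. Thus, among the listed serotonin receptor genes in the table, Htr3a and Htr3b held nearly all counts in these cells. Htr1a, Htr1f and Htr4 are not rows, so their counts are not known.

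Genes for making and handling serotonin were mostly those that noradrenergic neurons use for catecholamines too. All 12 of the list are in the table. The serotonin-specific first enzymes were rare: Tph1 was counted in 6 and Tph2 in 2 named cells. Of 10 genes with at least 20 counts, 6 in Ach1, 7 in Ach2 and 6 in Glutamatergic cells were at least 2-fold lower than in the other named cells. Of all 11557 genes with as many counts, 15.0%, 18.4% and 28.3% were. These include Ddc, the decarboxylase that completes serotonin and dopamine synthesis, and Gch1, which starts pterin synthesis. They also include Maoa, which degrades amines, and Slc18a2, the vesicular monoamine transporter. The median fold of the 10 genes was 0.442 in Ach1, 0.266 in Ach2 and 0.418 in Glutamatergic cells, and that of all genes 0.989, 0.972 and 0.894. In the noradrenergic identities few of the 10 genes passed. In Noradrenergic1, 1 was at least 2-fold higher and 1 lower, against 7.48% and 13.7% of all genes. In Noradrenergic2, 0 were higher and 2 lower, against 1.32% and 6.94%. In Noradrenergic3, 0 were higher and 1 lower, against 1.81% and 3.76%. In Noradrenergic4, 0 were higher and 3 lower, against 4.04% and 9.17%, and in Noradrenergic5, 1 was higher and 1 lower, against 3.4% and 9.54%. Pts, Spr and Qdpr, of pterin metabolism, were counted in 207, 188 and 210 named cells and were not past this fold in any of the 8 identities.

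The transporter genes of the list had their own places. Slc6a4, the plasma-membrane serotonin transporter, was counted in 9 of 10 Noradrenergic1 cells at 1.69 counts per 10000 and in 71 Noradrenergic3 cells at 0.45, but in 3 of 16 cholinergic cells. It was 5.77-fold higher in Noradrenergic1 than in the other named cells, where 7.48% of genes were at least 2-fold higher. Its correlation with Htr3a over cells was -0.16, and Noradrenergic1 was the identity where both were high. Slc18a1, the vesicular monoamine transporter of endocrine cells, was counted in 20 of 23 Noradrenergic5 cells, at 1.13 counts per 10000, and in 18 of the other 190 named cells. Maob, the amine oxidase that acts mainly on phenylethylamine and dopamine, was at least 2-fold lower in Ach1, Ach2 and Noradrenergic4.

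In the age test of Noradrenergic3, 2 of 9 tested genes of this list were higher in older collections and 0 were lower, against 0.651% of all genes that were higher, and DESeq2 called 3 of the 9. They were Maob, at 0.06 ± 0.01 log2 units per day (edgeR adjusted p = 0.000183), and Ddc, at 0.04 ± 0.01 (edgeR adjusted p = 0.011). Of the 5 nicotinic and the 5 assembly genes tested for age, 0 were called by edgeR, 1 was at an unadjusted p under 0.05 (Canx, an endoplasmic reticulum chaperone), and 1 was called by DESeq2. In the sex tests, edgeR and DESeq2 called 0 of the 9, 5 and 5 genes tested from these lists, in Noradrenergic3 as in Noradrenergic2. At an unadjusted p under 0.05 in edgeR there were 0 in Noradrenergic3 and 1, a nicotinic gene, in Noradrenergic2.

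The nicotinic subunits are the nearest relatives of the pair and carry fast transmission in these ganglia. Of 16 genes, 12 are in the table and 5 were counted in at least 10 named cells: Chrna3 in 212, Chrnb4 in 208, Chrnb2 in 150, Chrna5 in 125 and Chrna7 in 81. Chrna3, the ganglionic alpha subunit, averaged 3.68 to 6.29 counts per 10000 in the cholinergic and noradrenergic identities, without the steps of Htr3a. All 5 were at least 2-fold lower in Glutamatergic cells, where 28.3% of genes were. Chrna7 was 2.71-fold higher in Noradrenergic3, where Htr3a was lowest, with a count in 56 cells. There 1.81% of genes were at least 2-fold higher. It was counted in 0 of 8 Ach1 cells, which allows a share of up to 37.5%, and 1 of 8 Ach2 cells. Its order was not the reverse of that of Htr3a. Chrna7 was also low in Noradrenergic1, Noradrenergic4 and Noradrenergic5, at folds of 0.201, 0.434 and 0.270. In these, 13.7%, 9.17% and 9.54% of genes were at least 2-fold lower. Correlations of the 5 genes with Htr3a over named cells were between -0.32 and 0.00.

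Genes that help Cys-loop channels fold and reach the surface were not matched to the pair. Ric3, a chaperone known for type 3 and nicotinic receptors, was counted in 182 named cells and was at least 2-fold lower in Glutamatergic cells. In Ach1 it averaged 0.86 ± 0.35 counts per 10000 (n = 7), in Ach2 0.79 ± 0.12 (n = 4), and in Noradrenergic3 0.67 ± 0.16 (n = 7). Tmem35, which encodes the nicotinic chaperone NACHO, was at 2.38 ± 0.35 in Noradrenergic3 (n = 7) and 0.35 ± 0.37 in Ach1, and was counted in 0 of 8 Ach2 cells, which allows up to 0.125 counts per 10000. Unc50, Canx and Hspa5, which serve assembly or folding in the endoplasmic reticulum, were not past a 2-fold difference in any identity.

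Glial RNA moved in part with the identities. The 14 satellite glia and Schwann cell genes summed to a median of 29.7 counts per 10000 in Ach1 cells (4.81 to 65.3), 31.7 in Ach2 (5.07 to 49.8) and 28.7 in Glutamatergic cells (14.9 to 52.1). Medians were 7.11 in Noradrenergic1 and 4.95, 5.63, 9.73 and 5.84 in Noradrenergic2 to Noradrenergic5. Of 13 of these genes with at least 20 counts, 7 were at least 2-fold higher in Ach1, 7 in Ach2 and 7 in Glutamatergic cells, against 8.79%, 10.3% and 13.2% of all genes. Sox10, a defining glial factor, was counted in 2 of 8 Ach1 and 1 of 8 Ach2 cells. The part of glial RNA in the levels was not tested. Cells with much Htr3a had both low and high glial levels: 37.5 and 4.81 counts per 10000 in the Ach1 cells with 146 and 137 Htr3a counts, 64.6 in the Ach1 cell with 62, 5.07 in the Ach2 cell with 82, and 50.6 in the highest Noradrenergic1 cell. Without the cells above 50 counts per 10000 of glial genes, the mean level of Htr3a came to 17.8 in Ach1 cells and to 7.09 in Noradrenergic1 cells. No Ach2 cell was above that cut, so the Ach2 mean of 12.1 could not change. In the order of means, Glutamatergic then came before Noradrenergic2. Over named cells, the glial level correlated with Htr3a at 0.22, and at 0.09 within identities, and the total count of the cell at -0.03.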

How the data were processed

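The deposited table holds whole-number counts per gene and cell; per the submitters' processing notes, reads were placed on mm10. How they were aligned and counted, with or without strand or molecule tags, is not given in the sources used here. The authors deposited raw counts, and all scaling was done here with Python 3.11.15. Cells were grouped by the identity in the labels, and 0 columns lacked a sample. Total counts per cell, 7225 to 81589, limit the precision of shares, whose intervals are exact binomial at 95% and cover counting error only.

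Counts were summed per identity and collection. Sums of at least 3 cells were tested with edgeR 4.0.16 (TMM, robust quasi-likelihood F test, two-sided, Benjamini-Hochberg over all genes with at least 10 counts and a count in at least 3 libraries; called at an adjusted p under 0.05). DESeq2 1.42.0 was an alternative. The SE is the log2 value over the square root of F and restates the test. The edgeR script was tested on simulated data. Thinning to 15000 counts was calculated exactly for the shares of cells, and by a single random draw for the correlation. Both left out cells with fewer counts than that. Correlations used log2(counts per 10000 + 1).

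The members and the lists were chosen with earlier results of these data known. Named genes were the pair, listed genes counted in at least 10 named cells or called, the 10 genes most correlated with Htr3a, the 5 with Htr3b, and 5 for each after centring. Other genes are named only to illustrate a cell's identity, a list or the neighbourhood.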

Additional observations from a re-analysis of the deposited data

Results flagged for a closer look

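Levels in 14 groups of 4 to 7 collections were screened for a collection far from the others, and 3 stood out by Dixon's test; chance gives about 1 in 20. In Ach2, the P16 female collection was low for Htr3a, at 2.15 counts per 10000, and for Htr3b, at 0.717. It is 1 cell, with 6 and 2 counts, and its 65 counts of Npy are the highest in Ach2. In Noradrenergic1, the P29 male collection was high for Htr3a, at 19.9 counts per 10000. It holds 2 cells, 1 at 31.6 counts per 10000 of Htr3a with a glial level of 50.6, and 1 at 3.45 with a glial level of 0.864.

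The 85 unclassified cells, which enter no comparison, also held the pair. Htr3a was counted in 54.1% of them (95% exact binomial interval 42.96 to 64.98) and Htr3b in 34.1% (24.2 to 45.2). A count of 0 would allow 3.53%.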

How the results depend on the processing

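No paired analysis was possible because each collection holds 1 sex and 1 age and replicate numbers only follow the order of the labels; the comparison of sex effects between identities, which share collections, did use collections as block. With no filter on low counts, 8 genes were called for sex in Noradrenergic3 instead of 3, and 14 instead of 1 in Noradrenergic2; with sex and age together the count in Noradrenergic2 was 2. Leaving out 1 collection at a time gave 2 to 6 called genes for sex in Noradrenergic3 (5 without P11), 0 to 8 in Noradrenergic2 and 10 to 235 for age in Noradrenergic3, where 168 were called with all collections and 10 without P11. The Htr3a and Htr3b sex differences in Noradrenergic3 changed sign, to -0.28 and -0.026 with age in the model and to -0.93 and -1.52 without the P38 males. The cause of these changes was not tested. Levels left their SD in 1 case: Htr3a in Noradrenergic5 was 3.85 counts per 10000 over collections of at least 3 cells, against 2.05 over all. The correlation of the pair was 0.69 centred within identity, against 0.83. Of 24 shares of cells, 11 moved by more than the replicate SD after thinning and 6 when 2 counts were required, all downward. Identities of 4 to 10 cells and sums of 1 cell limit every level, and the tests compare 4 to 7 collections.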

Other observations

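In the unclassified cells Htr3a averaged 2.47 ± 2.35 counts per 10000 (SD, n = 7 collections) and Htr3b 0.50 ± 0.41. Without the collection labelled P16 female the means were 2.71 ± 2.47 and 0.50 ± 0.45 (n = 6). Both genes were counted in 27 of the 85 cells, Htr3a alone in 19, Htr3b alone in 2 and neither in 37. Htr3b made up 16.98% of the summed counts of the pair (95% exact binomial interval 13.5 to 20.9). The highest cells had 46, 43 and 39 Htr3a counts, with 88, 46 and 74 counts of Th, and the third also had 60 counts of Vip. The 6 unclassified P38 male cells had 0 counts of either gene, which allows up to 0.214 counts per 10000. The glial list summed to a median of 26.97 counts per 10000 in unclassified cells, and their median total was 22977 counts.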
